A study of Mus musculus with 6 samples.

Results

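The tetraspanin family was followed through a TGF-β treatment of NMuMG cells and its withdrawal. The family was taken as every gene whose symbol on the array is Tspan followed by a number, together with Cd9, Cd37, Cd53, Cd63, Cd81, Cd82, Cd151, Upk1a, Upk1b, Prph2 and Rom1. Of 31 such genes in the RefSeq table, 29 had a named probe set and are described here, out of 18193 genes measured. Cd63 and Tspan7 were not analysed here. The 29 genes had 63 probe sets, and each gene was represented by the probe set whose mean on the 6 arrays was highest.

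NMuMG is an epithelial line of the mouse mammary gland that grows indefinitely in culture. The withdrawal cells received 4 ng/ml TGF-β for 11 days and were then grown without it for 13 days, the TGF-β cells received the 4 ng/ml for 11 days, and the control cells received vehicle. All 3 groups were grown in the same serum- and insulin-containing medium. Each group had 2 Affymetrix arrays. Whether the 2 stand for separate cultures is not stated, so the spread behind each p-value is that of these samples and may be technical. The number of arrays limits the precision. Since withdrawal cells were also 13 days longer in culture, withdrawal cannot be told apart from the longer culture. In RNA from whole cultures, fewer cells of a type and less RNA per cell cannot be told apart either.

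Tetraspanins are small membrane proteins that cross the membrane 4 times and bind integrins, immunoglobulin-domain proteins, proteases and each other in the plane of the membrane. These assemblies take part in adhesion, migration, protein trafficking and vesicle release. In epithelia Cd9, Cd81, Cd82 and Cd151 are broadly expressed members, a set named TspanC8 escorts the protease Adam10 to the cell surface, the uroplakin members cover the surface of the bladder lining, and other members are known from photoreceptors or blood cells.

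A free-text field of the labels calls the withdrawal samples epithelial-to-mesenchymal and the TGF-β samples mesenchymal-to-epithelial, the reverse of what the treatments in their titles would give. The groups here follow the titles and treatment entries. Tagln, an actin-binding protein gene that TGF-β is known to induce, averaged 6.90 on withdrawal arrays, 12.65 on TGF-β arrays and 6.91 on control arrays (log2). Cdh1, the E-cadherin gene and a marker of epithelial cells, averaged 11.80 on withdrawal arrays, 8.31 on TGF-β arrays and 11.94 on control arrays. The epithelial keratin genes Krt8 and Krt18 averaged 13.37 and 13.75 on withdrawal arrays, 13.58 and 13.76 on TGF-β arrays, and 14.31 and 14.29 on control arrays, while the group means of Epcam, 6.93 to 7.20, were near the median of all genes, 6.86. Pearson's r across probe sets, which are not independent replicates, was 0.998 for each pair of arrays of one group and 0.974 to 0.981 for arrays of different groups.

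The stretches before the start sites of 4 members are shown because these were lower under TGF-β than in control: the 3 members with the largest decreases (Tspan8, Tspan15 and Cd9), and Tspan4, in which the same letters as in Cd9 recur. Each is the 250 bases before the RefSeq start site in build GRCm38.p6, 5′ to 3′, with matches of 3 motifs in capitals on either strand: CACCTG, an E-box to which the Snail and Zeb repressors bind, CAGAC, a Smad binding element, and TGACTCA, the AP-1 site.
Tspan8 promoter (chr10:115817034-115817283, plus strand): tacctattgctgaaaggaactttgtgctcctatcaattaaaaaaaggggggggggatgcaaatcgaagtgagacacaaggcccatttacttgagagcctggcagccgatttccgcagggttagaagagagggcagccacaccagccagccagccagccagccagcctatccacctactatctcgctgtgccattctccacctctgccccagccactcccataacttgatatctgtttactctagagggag
Tspan15 promoter (chr10:62231219-62231468, minus strand): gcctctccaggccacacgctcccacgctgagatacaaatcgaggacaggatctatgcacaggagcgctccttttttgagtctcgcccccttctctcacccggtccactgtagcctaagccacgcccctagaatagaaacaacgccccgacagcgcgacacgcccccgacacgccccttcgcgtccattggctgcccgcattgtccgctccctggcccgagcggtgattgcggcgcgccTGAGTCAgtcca
Cd9 promoter (chr6:125494761-125495010, minus strand): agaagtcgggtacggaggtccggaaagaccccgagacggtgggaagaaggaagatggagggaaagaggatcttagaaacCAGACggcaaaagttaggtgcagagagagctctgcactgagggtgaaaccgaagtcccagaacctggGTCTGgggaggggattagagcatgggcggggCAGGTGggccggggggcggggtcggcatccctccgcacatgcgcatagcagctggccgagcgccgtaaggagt
Tspan4 promoter (chr7:141474986-141475235, plus strand): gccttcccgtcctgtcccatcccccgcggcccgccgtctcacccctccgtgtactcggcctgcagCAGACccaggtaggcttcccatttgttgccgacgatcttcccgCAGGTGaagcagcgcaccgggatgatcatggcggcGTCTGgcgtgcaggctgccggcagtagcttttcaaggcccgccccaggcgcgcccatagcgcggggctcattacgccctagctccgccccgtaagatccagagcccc
Cd9 held 1 CACCTG match and 2 CAGAC matches. Tspan4, at the more upstream of its starts, likewise held 1 and 2. Only a Tspan4 start with a CAGAC match was kept for printing, so this likeness to Cd9 was chosen and is no finding. Cd82, with a larger decrease than Tspan4, is not shown. Tspan15 held 1 TGACTCA match, and Tspan8 held 0 matches of these letters in this window. No matches overlapped. CACCTG was found before 17.2% of all 32851 RefSeq start sites, CAGAC before 42.2% and TGACTCA before 4.46%. The table held 37 starts for 27 of the 29 members, 6 of which had several. Of the 37 starts, 9 (24.3%) had CACCTG, 17 (45.95%) CAGAC and 1 (2.70%) TGACTCA. By gene, a match before any start was counted, so these numbers do not compare with the shares of starts. Of the 27 members, 3 of the 8 that were lower under TGF-β had a CACCTG match (Cd9, Cd82 and Tspan4). Those that were higher had 0 of 5 and those that did not pass 4 of 14. For CAGAC the numbers were 3 of 8, 2 of 5 and 9 of 14. A match is a description of the letters and no evidence of binding. Whether these stretches overlap the sequence of neighbouring genes, coding parts included, was not examined.

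Under TGF-β, Tspan8, Tspan15, Cd9, Cd82, Tspan4, Tspan3, Tspan12 and Cd53 fell relative to control, and Upk1b, Tspan6, Tspan17, Tspan9, Tspan14 and Rom1 rose. In the limma test, adjusted over all genes at a threshold of 0.05, this was 6 members higher and 8 lower of 29 (20.7% and 27.6%), where 15.0% and 17.5% of all genes were called in those directions and 32.4% in either. With a log2 difference of at least 1, 2 members were higher and 4 lower, against 2.73% and 2.57% of all genes. The median difference of the 29 was -0.08, and of all genes -0.01. The median size of the difference, regardless of sign, was 0.37 for the members and 0.14 for all genes. Of the 29 members, 18 were brighter than the median gene. Without the dimmest 40% of genes, 6 members were higher and 7 lower of 21 tested. Beside them, 2862 genes were higher and 3381 lower of 10916, so the shares of members and genes lay close together.

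After withdrawal, 13 members were higher than under TGF-β and 2 were lower (44.8% and 6.90%), where 21.8% and 22.1% of all genes were called higher and lower and 43.9% in either direction. With a difference of at least 1, 7 members were higher and 1 lower, against 4.80% and 3.12% of all genes. The members that rose were Tspan8, Cd9, Tspan12, Cd53, Tspan15, Cd82, Tspan4, Tspan5, Tspan17, Cd81, Tspan31, Tspan14 and Cd151, and those that fell were Upk1b and Rom1. The median difference was 0.13 for the 29 members and -0.03 for all genes. Without the dimmest 40% of genes, 12 of 21 members were higher and 4 lower, beside 3864 and 3761 of 10916 genes.

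Against control, 13 members were higher after withdrawal and 4 lower (44.8% and 13.8%), where 21.7% and 23.6% of all genes were called higher and lower and 45.3% in either direction. With a difference of at least 1, 3 members were higher and 0 lower, against 5.06% and 3.48% of all genes. The 13 were Tspan17, Tspan12, Tspan6, Cd53, Tspan5, Tspan14, Cd81, Tspan31, Tspan9, Tspan4, Tspan1, Cd151 and Cd82, and the 4 were Tspan8, Tspan3, Tspan15 and Upk1b. The median difference was -0.04 for the members and -0.04 for all genes. Without the dimmest 40% of genes, 11 of 21 members were higher and 4 lower, beside 3831 and 3951 of 10916 genes. The comparisons share arrays, so they are given side by side and not set against each other as independent.

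Scaling the arrays to spiked RNAs moved these splits. With poly-A controls, added before labelling, the median of all genes was -0.30 for TGF-β against control, 0.12 for withdrawal against TGF-β and -0.18 for withdrawal against control. The members higher and lower were then 2 and 12, 13 and 1, and 7 and 4 of 29. Of all 18193 genes, 818 and 5334, 3506 and 1500, and 1967 and 3730 were called higher and lower. With hybridization controls the medians were -0.17, -0.25 and -0.42 and the members higher and lower 4 and 9, 11 and 8, and 6 and 15. Of all 18193 genes, 1319 and 4408, 2146 and 7772, and 1655 and 12634 were then called higher and lower. All changes here are therefore relative to the common level of the arrays.

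**Figure D1:**
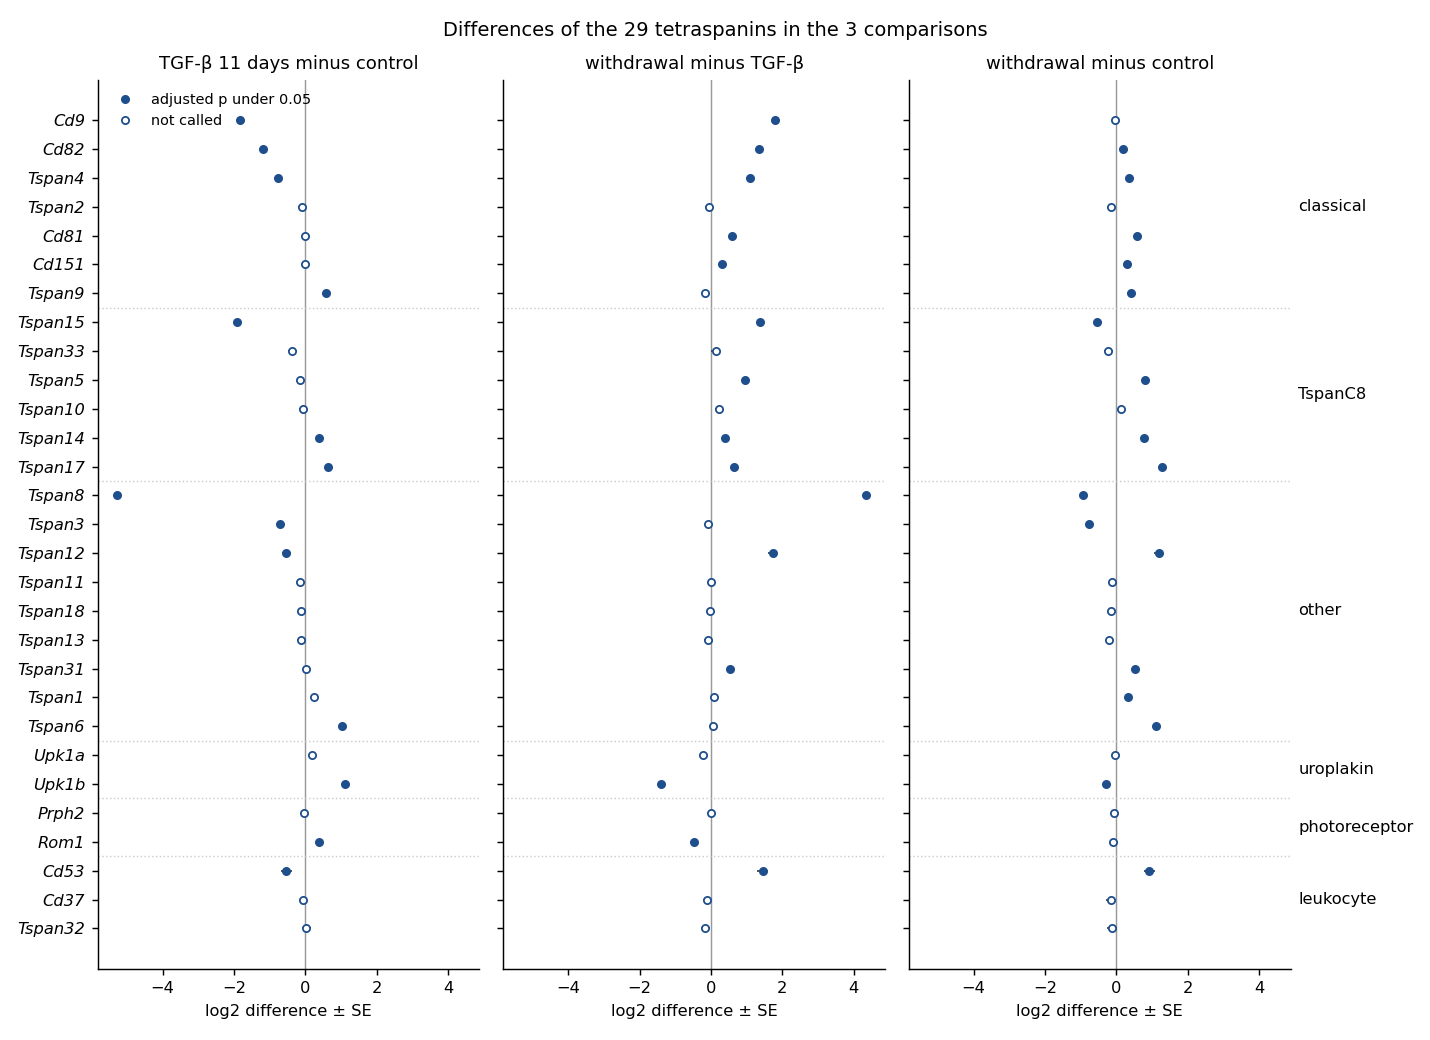
Log2 difference of each of the 29 tetraspanins (points, with bars of 1 SE, mostly smaller than the point) for TGF-β minus control, withdrawal minus TGF-β and withdrawal minus control, in groups of known role; filled points have adjusted p under 0.05 in limma. Tspan8 lies at -5.28, 4.34 and -0.94 in the 3 panels, and 14, 15 and 17 members are filled.

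**Figure D2:**
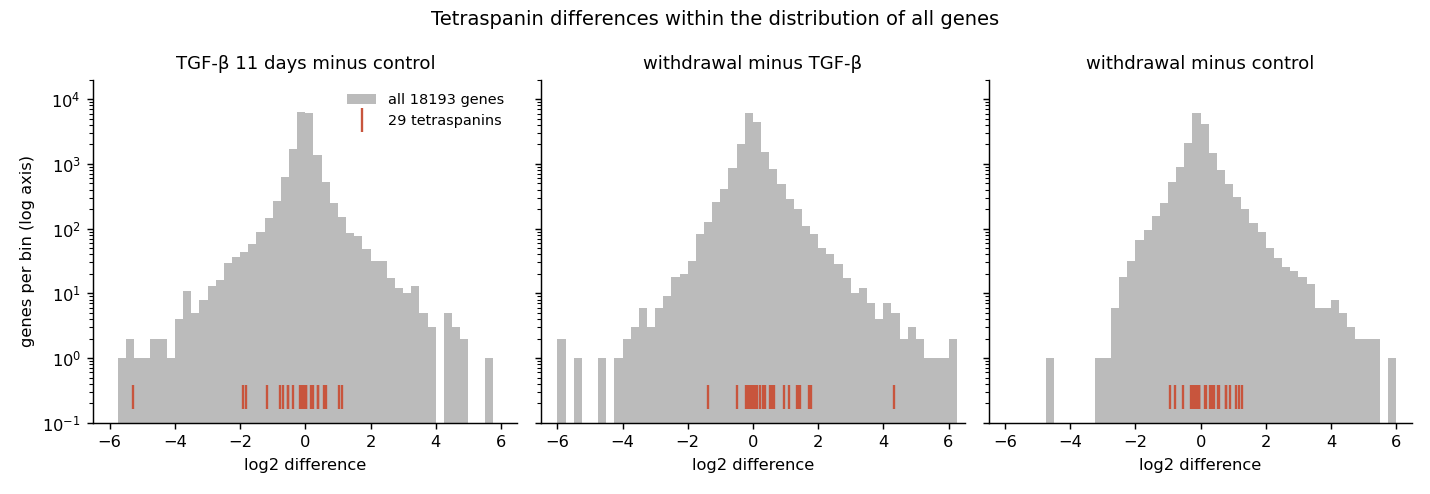
Histogram of the log2 differences of all 18193 genes (grey, log vertical axis) in the 3 comparisons, with each tetraspanin as a red tick. The members run from -5.28 to 1.11 under TGF-β against control, from -1.39 to 4.34 for withdrawal against TGF-β and from -0.94 to 1.27 for withdrawal against control.

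Among the broadly expressed members, Cd9, which organises adhesion and growth factor precursors at the cell surface, had 12.90 and 12.92 on withdrawal arrays, 11.09 and 11.16 on TGF-β arrays, and 12.95 and 12.94 on control arrays. The TGF-β arrays were the low ones. Under TGF-β Cd9 fell by 1.82 ± 0.052 (SE; log2), 3.53-fold lower than in control (adjusted p = 6.85e-06, limma), and after withdrawal it was 1.78 higher than under TGF-β (adjusted p = 6.67e-06). Withdrawal minus control was -0.04, with a 95% interval of -0.16 to 0.09. With hybridization controls this difference was -0.41 and was called lower (adjusted p = 0.00343, limma).

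Cd82, known as a suppressor of metastasis, had 9.19 and 9.17 on withdrawal arrays, 7.81 and 7.84 on TGF-β arrays, and 8.97 and 9.04 on control arrays. Its TGF-β values lay more than 1 log2 unit below all others. It fell by 1.18 ± 0.052 under TGF-β against control (2.27-fold lower, adjusted p = 2.80e-05, limma) and rose by 1.35 on withdrawal against TGF-β (adjusted p = 1.36e-05). Withdrawal minus control was 0.17 (adjusted p = 0.0407), a call lost when any one of the 6 arrays was left out (adjusted p of 0.0672 to 0.186) and turned to -0.21 with hybridization controls and to -0.01 with the mean of the probe sets of Cd82. The other probe set of Cd82 gave 0.02 for TGF-β minus control and -0.21 for withdrawal minus TGF-β, opposite in direction to the probe set used (adjusted p = 0.0403 for the second difference, limma over all probe sets).

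Tspan4, a protein of the retraction fibres and migrasomes that moving cells leave behind, had 11.84 and 11.85 on withdrawal arrays, 10.71 and 10.77 on TGF-β arrays, and 11.51 and 11.50 on control arrays. The groups did not overlap, with TGF-β lowest and withdrawal highest. Tspan4 was 1.70-fold lower under TGF-β than in control (log2 difference -0.76 ± 0.051, adjusted p = 1.36e-04, limma) and 2.14-fold higher on withdrawal than under TGF-β (1.10, adjusted p = 2.31e-05). Withdrawal was 0.34 above control (adjusted p = 0.00236), a difference that was 0.20 with poly-A controls (adjusted p = 0.395) and turned to -0.04 with hybridization controls.

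Cd81 and Cd151 followed another course. Cd81, which serves as a co-receptor subunit on B cells and is broadly expressed elsewhere, had 13.33 and 13.31 on withdrawal arrays, 12.72 and 12.75 on TGF-β arrays, and 12.73 and 12.77 on control arrays. The TGF-β and control arrays overlapped, with a difference of -0.02 and a 95% interval of -0.14 to 0.10. Withdrawal was 0.58 above TGF-β (adjusted p = 2.22e-04, limma) and 0.56 above control (adjusted p = 2.33e-04), where the second was 0.19 with hybridization controls (adjusted p = 0.185). Cd151, the partner of laminin-binding integrins, averaged 12.62 on withdrawal, 12.31 on TGF-β and 12.32 on control arrays. It rose by 0.31 on withdrawal against TGF-β and by 0.30 against control (adjusted p = 0.00320 and 0.00348). With hybridization controls these were 0.09 and -0.08 and neither passed. The second did not pass with poly-A controls (0.16, adjusted p = 0.497) or with the mean of its probe sets either. Other bright probe sets of Cd151 gave 0.23 to 0.33 for the first difference and 0.18 to 0.30 for the second, all called. Its dimmest probe sets gave 0.15 and -0.29 for the first and 0.05 and -0.30 for the second, and were not called.

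Tspan9, known from platelets, averaged 10.09 on withdrawal, 10.24 on TGF-β and 9.68 on control arrays. It rose by 0.57 under TGF-β (adjusted p = 7.87e-04, limma) and was 0.41 above control after withdrawal (adjusted p = 0.00185). With poly-A controls neither passed (0.28 and 0.27, adjusted p = 0.180 and 0.234), and with hybridization controls the second was 0.03 (adjusted p = 0.817). The other probe set of Tspan9 gave -0.00 and 0.10 for the same differences and was not called. Tspan2, an oligodendrocyte member, averaged 5.88 on withdrawal, 5.94 on TGF-β and 6.05 on control arrays, was dimmer than the median gene, and did not pass in any comparison. Of its other 2 probe sets, 1 was called lower under TGF-β than in control (-0.47, adjusted p = 0.00428, limma over all probe sets) and on withdrawal than in control (-0.26, adjusted p = 0.0295), and Tspan2 was called lower under TGF-β with the mean of its probe sets (-0.18, adjusted p = 0.0381).

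**Figure D3:**
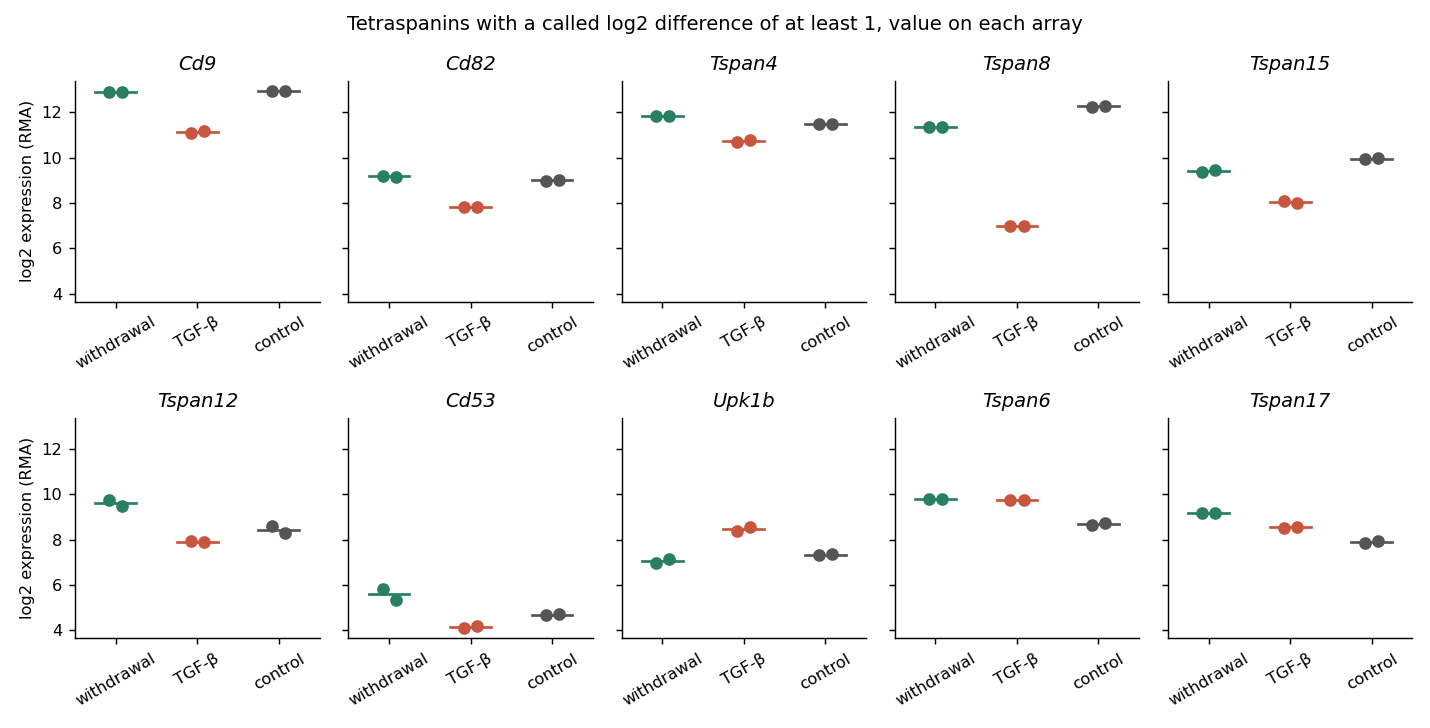
Log2 expression of the 10 members called with a difference of at least 1 in any comparison, on each array (points) with the group mean (line), for withdrawal, TGF-β and control. The panels of Cd9, Cd82, Tspan4, Tspan8, Tspan15, Tspan12 and Cd53 have their lowest values under TGF-β, Upk1b is highest there, Tspan6 has its lowest values in control, and Tspan17 is highest after withdrawal.

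The TspanC8 members, which guide Adam10 and steer its choice of substrates, went in different directions. Tspan15, which directs Adam10 to N-cadherin, had 9.38 and 9.47 on withdrawal arrays, 8.09 and 8.02 on TGF-β arrays, and 9.94 and 9.97 on control arrays. It was lowest under TGF-β, and withdrawal values lay between the other groups. It was 3.75-fold lower under TGF-β than in control (-1.91 ± 0.058, adjusted p = 8.00e-06, limma), rose by 1.37 on withdrawal against TGF-β (adjusted p = 1.80e-05), and was 0.53 below control at the end (-0.53, adjusted p = 5.90e-04).

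Tspan17 had 9.20 and 9.17 on withdrawal arrays, 8.52 and 8.57 on TGF-β arrays, and 7.86 and 7.97 on control arrays. Each group stood clear of the next. It rose by 0.63 ± 0.060 under TGF-β against control (adjusted p = 5.44e-04, limma), by a further 0.64 on withdrawal against TGF-β (adjusted p = 3.20e-04), and was 2.42-fold higher after withdrawal than in control (1.27, adjusted p = 2.11e-05). Tspan14 moved the same way with smaller steps, averaging 9.45 on withdrawal, 9.07 on TGF-β and 8.68 on control arrays. Its differences were 0.39 for TGF-β minus control, 0.38 for withdrawal minus TGF-β and 0.77 for withdrawal minus control (adjusted p = 0.00198, 0.00138 and 6.98e-05). With poly-A controls the TGF-β calls of Tspan17 and Tspan14 were lost, at 0.34 and 0.10 (adjusted p = 0.103 and 0.622). With hybridization controls Tspan14 was not called under TGF-β against control (0.23, adjusted p = 0.179) or on withdrawal against TGF-β (0.16, adjusted p = 0.280).

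Tspan5 averaged 8.32 on withdrawal, 7.37 on TGF-β and 7.52 on control arrays. It did not pass under TGF-β (-0.15, adjusted p = 0.226, limma), and after withdrawal it was 0.94 above TGF-β and 0.79 above control (adjusted p = 2.27e-04 and 4.43e-04). Its other probe set gave -0.43, 1.04 and 0.61 for TGF-β minus control, withdrawal minus TGF-β and withdrawal minus control, and was called in each. Tspan10 and Tspan33 were dimmer than the median gene and did not pass, with differences of -0.08 and -0.37 for TGF-β minus control (adjusted p = 0.630 and 0.0846). Of the 3 other probe sets of Tspan33, those at -0.86 and -0.55 were called lower. Adam10 itself did not pass in any comparison, averaging 11.41 on withdrawal, 11.36 on TGF-β and 11.35 on control arrays.

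Tspan8, a member of digestive and other glandular epithelia that is raised in several carcinomas, had the largest difference of the family. It had 11.34 and 11.34 on withdrawal arrays, 7.01 and 6.99 on TGF-β arrays, and 12.26 and 12.30 on control arrays. The TGF-β arrays lay near the median of all genes, and the withdrawal arrays lay below control by less than 1 log2 unit. Tspan8 was 38.9-fold lower under TGF-β than in control (-5.28 ± 0.049, adjusted p = 1.09e-06, limma), 20.3-fold higher on withdrawal than under TGF-β (4.34, adjusted p = 6.52e-07) and 1.92-fold lower on withdrawal than in control (-0.94, adjusted p = 3.06e-05). Its 4 other probe sets gave -1.26 to -3.68 for TGF-β minus control and 0.57 to 2.52 for withdrawal minus TGF-β, all called in the direction of the probe set used.

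Tspan12, which strengthens Norrin signalling through the receptor Fzd4 in retinal vessels, had 9.75 and 9.51 on withdrawal arrays, 7.92 and 7.88 on TGF-β arrays, and 8.59 and 8.29 on control arrays. The withdrawal arrays were above both other groups, by 1.73 ± 0.12 against TGF-β (3.31-fold, adjusted p = 1.07e-04, limma) and by 1.19 against control (adjusted p = 4.55e-04). The only probe sets of Tspan12 and Tspan14 have names ending in s. Where probe sets ending in x, s or a were left out, neither gene was tested. Under TGF-β Tspan12 was 0.54 below control (-0.54, adjusted p = 0.0188). That call was lost without the first or the second TGF-β array, or without the first control array (adjusted p = 0.0641, 0.0812 and 0.0790), and the last of these left a difference of -0.39.

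Tspan6, which has been tied to vesicle cargo through syntenin, had 9.81 on both withdrawal arrays, 9.75 on both TGF-β arrays, and 8.67 and 8.76 on control arrays. Control was the low group. Tspan6 rose by 1.04 ± 0.054 under TGF-β (2.05-fold, adjusted p = 5.24e-05, limma) and was 1.10 above control after withdrawal (adjusted p = 2.50e-05). Withdrawal minus TGF-β was 0.06, with a 95% interval of -0.07 to 0.19 (adjusted p = 0.414). The other probe set of Tspan6 gave 0.69, 0.80 and 0.11 for TGF-β minus control, withdrawal minus control and withdrawal minus TGF-β.

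Tspan3 had the opposite lasting difference, averaging 10.27 on withdrawal, 10.36 on TGF-β and 11.06 on control arrays. It was 0.70 lower under TGF-β and 0.78 lower after withdrawal than in control (-0.70 and -0.78, adjusted p = 3.69e-04 and 1.31e-04, limma), and withdrawal minus TGF-β was -0.08 (95% interval -0.23 to 0.06). Tspan31, whose human counterpart was found amplified in sarcomas, averaged 12.08 on withdrawal, 11.55 on TGF-β and 11.55 on control arrays. It was 0.52 above TGF-β and 0.53 above control after withdrawal (adjusted p = 4.12e-04 and 3.52e-04). The second call was lost with poly-A and with hybridization controls (0.39 and 0.15, adjusted p = 0.0722 and 0.284). Tspan1, an epithelial member, was dimmer than the median gene and was 0.33 above control after withdrawal (adjusted p = 0.0145, limma). This call was lost without the second withdrawal array or the first control array (0.25 and 0.28, adjusted p = 0.0609 and 0.0831), the difference turned to -0.05 with hybridization controls, and the other probe set of Tspan1 gave -0.16. Tspan11, Tspan13 and Tspan18 were dim and passed in no comparison.

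The uroplakin member Upk1b, which pairs with Upk3 proteins in the plaques of bladder epithelium, had 6.99 and 7.15 on withdrawal arrays, 8.37 and 8.55 on TGF-β arrays, and 7.31 and 7.39 on control arrays. The TGF-β arrays were the high ones. Upk1b rose by 1.11 ± 0.088 under TGF-β (2.16-fold, adjusted p = 2.62e-04, limma) and fell by 1.39 on withdrawal against TGF-β (adjusted p = 6.72e-05). Withdrawal minus control was -0.28 (adjusted p = 0.0432). That call was lost without the first withdrawal array (-0.20, adjusted p = 0.175), without either control array (-0.32 and -0.24, adjusted p = 0.0916 and 0.179). The 3 other probe sets of Upk1b gave 0.41 to 1.19 for TGF-β minus control and -0.49 to -1.90 for withdrawal minus TGF-β. For withdrawal minus control they gave -0.77, -0.66 and -0.08, of which the first 2 were called lower (adjusted p = 1.01e-04 and 0.00740, limma over all probe sets). Upk1a, which pairs with Upk2, averaged 6.36 on withdrawal, 6.59 on TGF-β and 6.40 on control arrays and did not pass. Upk2, Upk3a and Upk3b passed in no comparison either, and the urothelial keratin gene Krt20 averaged 8.48 on withdrawal, 8.19 on TGF-β and 10.66 on control arrays.

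Of the members known from photoreceptor discs, Rom1 averaged 7.23 on withdrawal, 7.71 on TGF-β and 7.33 on control arrays. It rose by 0.38 under TGF-β (adjusted p = 0.00427, limma) and fell by 0.49 on withdrawal (adjusted p = 9.95e-04). With poly-A and with hybridization controls the first call was lost (0.09 and 0.22, adjusted p = 0.653 and 0.198), and with poly-A controls so was the second (-0.34, adjusted p = 0.148). Its partner Prph2 lay at 3.73 to 3.92 on all 6 arrays and did not pass. The photoreceptor markers measured, 3 of 4, were dimmer than the median gene and passed in no comparison.

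Of the members known from blood cells, Cd53 had 5.84 and 5.35 on withdrawal arrays, 4.09 and 4.20 on TGF-β arrays, and 4.66 and 4.70 on control arrays. These are low values in a table that does not separate signal from background, and the withdrawal arrays were the high ones. Cd53 was 1.45 ± 0.15 above TGF-β after withdrawal (2.73-fold, adjusted p = 5.50e-04, limma) and 0.91 above control (adjusted p = 0.00386; 0.0542 without moderation of the spread). Under TGF-β it was at -0.54 against control (adjusted p = 0.0431), a call lost without the first or second TGF-β array (adjusted p = 0.156 and 0.0951) and without the first or second control array (adjusted p = 0.134 and 0.156). Its other probe set gave 0.23 for withdrawal minus TGF-β and was not called.

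Of 8 leukocyte markers, 7 were measured, all dimmer than the median gene. Their summed level, as log2 of the sum, lay at 8.55 to 8.57 on withdrawal arrays, 8.38 to 8.50 on TGF-β arrays and 8.37 to 8.44 on control arrays. The lysosomal macrophage protein gene Cd68 was the 1 marker called, at 6.63 on withdrawal, 5.59 on TGF-β and 5.75 on control arrays (adjusted p = 0.00167 for withdrawal against TGF-β, limma). The defining leukocyte gene Ptprc averaged 3.83, 3.99 and 3.86 in the same order of groups and did not pass, and the part of such cells in the Cd53 result was not tested. Cd37 and Tspan32 passed in no comparison, with withdrawal minus TGF-β at -0.10 and -0.16.

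In all, 19 of the 29 members were called in at least 1 comparison, 10 of them with a difference of at least 1. In the single comparisons 32.4%, 43.9% and 45.3% of all genes were called. The share of all genes called in any of them was not counted, so the 19 and 10 only account for the members. The 10 members called in none were Cd37, Prph2, Tspan2, Tspan10, Tspan11, Tspan13, Tspan18, Tspan32, Tspan33 and Upk1a, whose array values lay between 3.73 and 7.97 and whose differences ran from -0.37 to 0.22. Except Tspan32, all were dimmer than the median gene. A miss of the threshold does not show that these genes did not change.

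The 18 members with several probe sets allowed a check within the arrays. For TGF-β minus control, the members called had 12 further probe sets, of which 8 were called the same way, 4 were not called and 0 were called the opposite way. For withdrawal minus TGF-β the numbers were 18, 13, 4 and 1, the last being that of Cd82, and for withdrawal minus control 21, 13, 8 and 0. Among the further probe sets of members not called, 4 of 22, 2 of 16 and 3 of 13 were called in the 3 comparisons. Of all genes, 32.4%, 43.9% and 45.3% were called in them. The share of all probe sets called was not counted, so these numbers only describe the members.

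**Figure D4:**
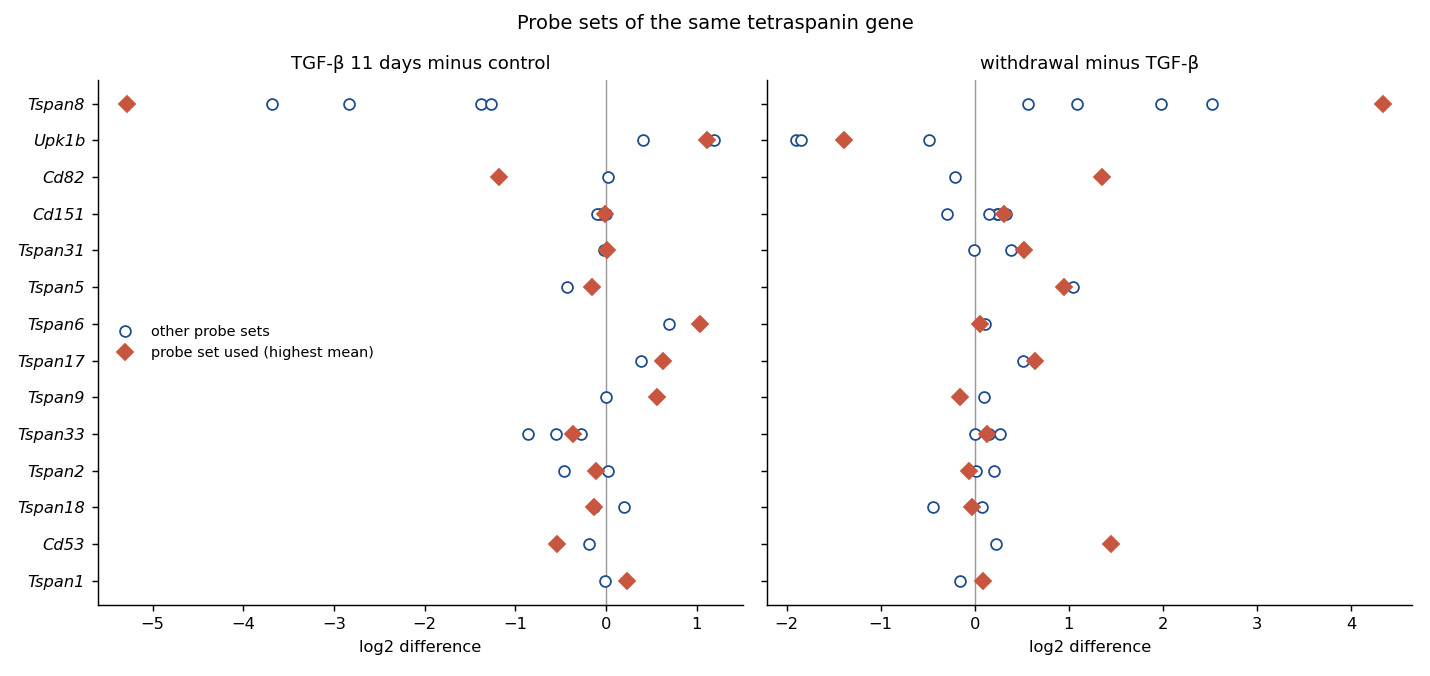
Log2 differences for 14 tetraspanins with several probe sets, TGF-β minus control on the left and withdrawal minus TGF-β on the right; red diamonds are the probe sets used and open circles the others of the same gene. All probe sets of Tspan8 and Upk1b lie on one side of 0 in each panel, while the circles of Cd82 lie at 0.02 and -0.21, away from the diamonds at -1.18 and 1.35.

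The genes of known tetraspanin partners, 35 in all, were measured beside the family. Under TGF-β, 7 were higher and 11 lower than in control, after withdrawal 16 were higher and 7 lower than under TGF-β, and 11 were higher and 9 lower than in control. These were 20.0% and 31.4%, 45.7% and 20.0%, and 31.4% and 25.7% of the 35, beside 15.0% and 17.5%, 21.8% and 22.1%, and 21.7% and 23.6% of all genes. The list was chosen with earlier results of these data known, so its shares are no test of the partners. The median differences of the partners were -0.06, 0.13 and 0.03, and those of all genes -0.01, -0.03 and -0.04. Of the 5 integrin chains, Itga6, Itgb4 and Itga3 fell under TGF-β (differences of -2.11, -1.33 and -0.57), and Itgb1, the common β chain, rose by 0.59. On withdrawal against TGF-β, Itga6, Itgb4, Itga3 and Itga7 rose, by 0.79, 1.56, 0.72 and 0.56, and Itgb1 fell by 0.35. Itga6 stayed 1.31 below control (-1.31, adjusted p = 1.10e-05, limma).

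Of the immunoglobulin-domain partners of Cd9 and Cd81, Igsf8 and Ptgfrn fell under TGF-β by 0.57 and 0.78, and Ptgfrn was at -0.02 on withdrawal against TGF-β and did not pass. Igsf3 fell by 0.59 on withdrawal against TGF-β. Cdh1 fell by 3.63 under TGF-β and rose by 3.49 on withdrawal against TGF-β. Cd44, a hyaluronan receptor, rose by 0.42 under TGF-β and was 0.59 above control after withdrawal. Epcam, Cldn1 and Cldn7, genes of epithelial adhesion proteins that associate with tetraspanins, did not pass under TGF-β, with differences of 0.19, 0.08 and -0.06. On withdrawal against TGF-β, Epcam was called lower (-0.27, adjusted p = 0.0301, limma), opposite in direction to Cdh1, and Cldn1 and Cldn7 did not pass.

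The growth factor precursor gene Hbegf, whose protein binds Cd9, rose by 0.79 under TGF-β and fell by 1.57 on withdrawal against TGF-β. Timp1, whose protein binds Cd63, rose by 1.41 and fell by 1.51, and Zdhhc2, which palmitoylates Cd9 and Cd151, rose by 1.15 and fell by 1.62. Notch1, a substrate of Adam10, fell by 1.31 under TGF-β and was 3.27 higher on withdrawal than under TGF-β. Mmp14, a membrane protease, rose by 1.21 under TGF-β and was 1.55 above control after withdrawal. Adam17, a sheddase that binds Cd9, was 0.55 above TGF-β and 0.57 above control after withdrawal. The receptor genes Egfr and Met fell under TGF-β by 0.53 and 0.80 and rose by 0.27 and 0.37 on withdrawal against TGF-β. Prkca, a kinase that associates with tetraspanins, rose by 0.52 under TGF-β and was 1.01 above control after withdrawal. Fzd4 and Ndp of the Norrin complex passed in no comparison, while Lrp5 fell by 0.96 under TGF-β and rose by 1.21 on withdrawal. Of 5 genes of vesicle machinery, Sdcbp, the syntenin gene, rose by 0.42 on withdrawal against TGF-β, and Vps4a fell by 0.66 under TGF-β and by a further 0.25 on withdrawal.

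**Figure D5:**
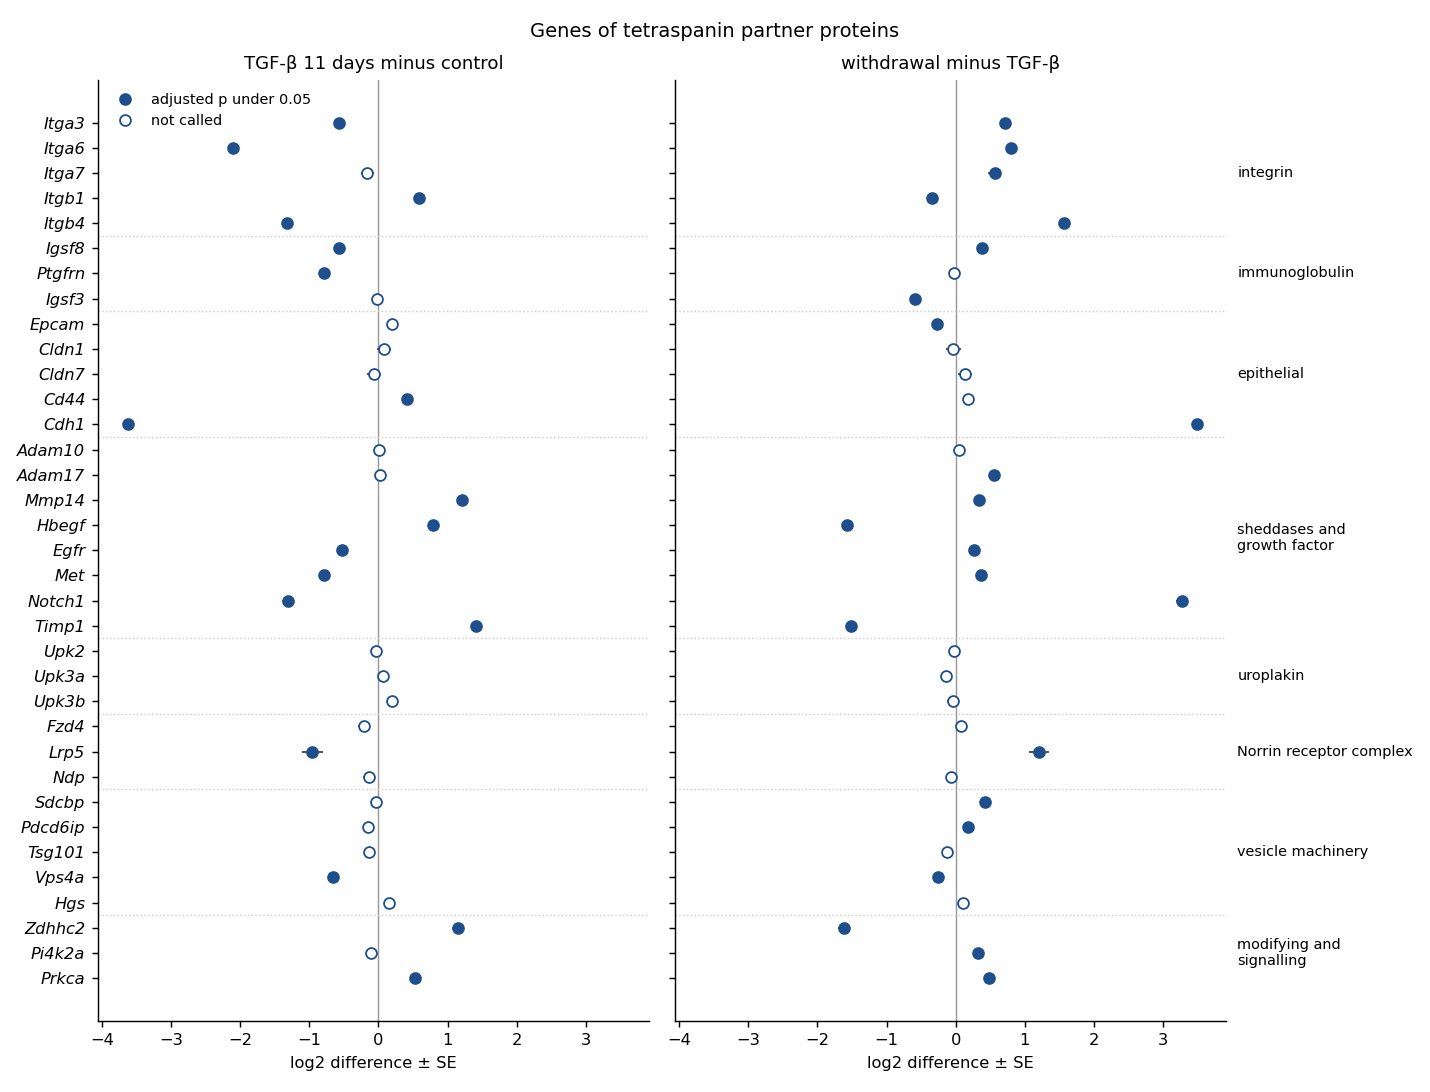
Log2 differences (points, with bars of 1 SE) of 35 genes of tetraspanin partner proteins for TGF-β minus control on the left and withdrawal minus TGF-β on the right, grouped by kind of partner; filled points have adjusted p under 0.05 in limma. Cdh1 lies at -3.63 and 3.49, Notch1 at -1.31 and 3.27, and Hbegf, Timp1 and Zdhhc2 lie right of 0 on the left and left of 0 on the right.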

How the data were processed

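RNA of 6 samples of NMuMG cells was hybridised to 1-colour Affymetrix arrays after 3′ in vitro transcription labelling, per the labels' protocols. The authors deposited log2 values, 1 for each probe set and array, from RMA (named in the submitters' processing notes), whose version is not given in the sources used here. RMA background-corrects, quantile normalises and summarises probes, so it removes a shift shared by all genes. Of 45101 probe sets, 64 controls were left out, and 34945 with 1 gene symbol in the platform annotation were kept (932 had several and 9160 none), giving 18193 genes. Symbols were checked by gene number against RefSeq (GRCm38.p6) and 0 changed.

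All 6 arrays entered 1 limma fit of every gene, with limma 3.58.1 in R 4.3.3 (lmFit and eBayes, 3 residual and 2.86 prior degrees of freedom, no covariate and no filter on low values), two-sided, with Benjamini-Hochberg adjustment over all genes and a threshold of 0.05. The fit was tested on simulated data. Deposited log2 values were otherwise used as given. Probe sets were also fitted one by one. Members called with a difference of at least 1 have their value on every array in the text; all partners called at 0.5 or more in a comparison were named, and others chosen after their values were seen (Adam10, Epcam, Cldn1, Cldn7, Upk2, Upk3a, Upk3b, Fzd4, Ndp, Sdcbp). Promoters are 250 bases before RefSeq starts, without the 50 bases after them; Upk1b and Tspan18 had no entry. Python 3.11.15, pandas 2.3.3 and matplotlib 3.10.9 served for sequences and figures. The members and lists were chosen with earlier results of these data known.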

Additional observations from a re-analysis of the deposited data

How the results depend on the processing

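The 3 comparisons gave 46 calls over the 29 members. Under 18 other settings, 28 of these calls were kept in every setting in which the gene was tested, and 18 were lost in at least 1. Of 41 results that did not pass, 25 passed under at least 1 setting. Of these, 11 did so for withdrawal against control with hybridization control scaling, which adds the same amount to every gene. Calls kept, lost or gained were not counted for all genes, so these numbers only describe the members. The counts of members moved by over 1.5 times only in the following cases. With poly-A control scaling, 2 were higher under TGF-β than in control (6 with the deposited values), 1 was lower on withdrawal than under TGF-β (2), and 7 were higher on withdrawal than in control (13). Of all 18193 genes, 818, 1500 and 1967 were called in these same directions. With hybridization control scaling, 8 were lower on withdrawal than under TGF-β, and 6 were higher and 15 lower on withdrawal than in control. For all genes these numbers were 7772, 1655 and 12634 of 18193. Without the dimmest 40% of genes, 4 were lower on withdrawal than under TGF-β, where 10916 genes and 21 members were tested. Of those genes, 3761 were lower.

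Withdrawal minus control changed sign for Cd82 (-0.0095 with the mean of its probe sets, -0.21 with hybridization control scaling), Tspan1 (-0.16 without probe sets ending in x, s or a, -0.048 with hybridization control scaling), Cd151 (-0.077) and Tspan4 (-0.039, both with hybridization control scaling). None of these passed in the setting named. Hybridization control scaling adds the same amount, -0.38, to this difference of every gene. The mean of probe sets brings in the other probe set of Cd82, and the filter on names replaces that of Tspan1.

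Replicates with the same number did not deviate together across genes (correlations of -0.02, -0.00 and 0.01). Such correlations cannot settle whether the arrays were paired by culture or day, which the labels do not state. With the replicate number as a block, 7 members rose and 8 fell for TGF-β against control, 13 and 2 on withdrawal against TGF-β, and 12 and 4 on withdrawal against control. Of all 18193 genes, 2568 and 2951, 3854 and 3834, and 3800 and 4108 rose and fell. With the block, Cd53 (adjusted p = 0.0647) was not called and Tspan1 and Tspan33 were (0.0357 and 0.0197) for TGF-β against control, and Cd82 was not called for withdrawal against control (0.0629). Fits that left out 1 array assumed that the lone array of a group varied like the other groups. Counts of members called in those fits are therefore not given. The arrays hold no detection call, so depth of signal limits the dim members most.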

Other observations

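Some tetraspanin genes neighbour each other in the RefSeq annotation (GRCm38.p6), with 0 protein-coding genes between Tspan18 and Cd82, between Tspan11 and Tspan9 and between Tspan32 and Cd81, and 1 between Cd151 and Tspan4. Cd82 fell by 1.18 under TGF-β against control, while Tspan18 was at -0.13 and did not pass (adjusted p = 0.306, limma). Tspan9 rose by 0.57, while Tspan11 was at -0.14 (adjusted p = 0.209). Tspan4 fell by 0.76, while Cd151 was at -0.01 (adjusted p = 0.923). On withdrawal against TGF-β, Cd81 rose by 0.58, while Tspan32 was at -0.16 (adjusted p = 0.344), and both Tspan4 and Cd151 rose, by 1.10 and 0.31. The difference between neighbours was not tested, and Tspan11 and Tspan18 are dimmer than the median gene.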
